A study of Mus musculus with 7 samples.

Results

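Fgf21, Gdf15, Adm2, Adm, Vegfa and Stc2 encode hormones and growth factors that cells secrete under stress. These 6 genes were chosen by name, as secreted factors known to be induced by the integrated stress response. The choice was made with results of the comparison below already known. All 6 were found among the 13376 rows of the RNA table. Levels were given by the authors as FPKM, which divides the fragments of a gene by its length and by the size of the library, so that levels can be compared between genes. The RNA came from C2C12 cells, a mouse myoblast line, kept proliferating, with 2 libraries labelled siRNA against the long noncoding RNA lnc-31 and 2 labelled scrambled siRNA. A separate pull-down in the same line had 1 library with biotinylated antisense probes against lnc-31 and 1 with probes against the bacterial lacZ sequence. Whether the paired libraries of a group were grown as separate cultures is not stated in the labels, so their spread may be technical. No depth is given, so precision comes only from that spread.

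In the integrated stress response, kinases that sense amino acid shortage, unfolded protein, heme shortage or viral RNA phosphorylate the initiation factor eIF2. General translation falls while the transcription factor ATF4 is made, and ATF4 with its partners CHOP and the C/EBP proteins switches on genes of amino acid supply, feedback regulators and a few secreted proteins. FGF21 and GDF15 are the best known of these in muscle, where stressed fibres release them into the circulation. VEGFA and adrenomedullin (Adm) are also targets of the hypoxia factors HIF.

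The stretch before the start of transcription is shown for Fgf21, Adm2 and Gdf15, the 3 with the highest log2 fold changes among the hormones tested below (Adm was too low to be tested), because ATF4 and C/EBP proteins bind a composite element whose core is TGATGNAA. The sequences are from RefSeq on GRCm38.p6, 5′ to 3′ on the strand of the gene, and run from 250 bases upstream to the base before the annotated start. Capitals mark TGATGNAA and ACGTG, a form of the core of the hypoxia response element, on either strand. The form GCGTG was not looked for.
Fgf21, chr7:45615491-45615740, minus strand: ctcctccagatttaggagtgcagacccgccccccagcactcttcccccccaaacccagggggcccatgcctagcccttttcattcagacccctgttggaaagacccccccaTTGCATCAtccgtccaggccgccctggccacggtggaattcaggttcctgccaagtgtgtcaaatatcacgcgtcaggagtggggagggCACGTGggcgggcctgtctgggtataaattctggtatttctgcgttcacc
Adm2, chr15:89322470-89322719, plus strand: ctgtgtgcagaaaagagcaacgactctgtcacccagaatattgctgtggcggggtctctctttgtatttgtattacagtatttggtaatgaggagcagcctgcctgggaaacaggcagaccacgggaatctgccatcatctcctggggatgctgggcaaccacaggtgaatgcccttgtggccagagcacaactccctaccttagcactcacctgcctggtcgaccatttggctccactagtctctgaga
Gdf15, chr8:70632457-70632706, minus strand: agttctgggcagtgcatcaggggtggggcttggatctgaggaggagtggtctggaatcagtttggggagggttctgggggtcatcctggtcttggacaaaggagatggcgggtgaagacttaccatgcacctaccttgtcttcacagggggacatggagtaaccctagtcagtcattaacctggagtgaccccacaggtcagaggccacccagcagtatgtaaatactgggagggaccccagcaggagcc
Fgf21 held the composite core 139 to 132 bases upstream, on the opposite strand as TGATGCAA. It also held CACGTG 50 to 45 bases upstream, where ACGTG is read on both strands in overlapping letters. The Adm2 and Gdf15 stretches held neither. RefSeq gave 8 such windows for the 6 genes. TGATGNAA lay in 1 of the 8, that of Fgf21, and in 3.45% of all 32851 windows of this length. ACGTG lay in 3 of the 8 windows, the others being at a start further inside the gene in Gdf15 and Vegfa, and in 16.6% of all windows. The Gdf15 stretch shown also overlaps the RefSeq span of the gene, which ends at 70632470, so its start lies inside that span too. A match of letters is a description and not a binding site, and its absence says only that these letters are not in the window.

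The knockdown was looked for in the row that names Mir31, a microRNA made from the lnc-31 locus. This row carries a merged name, Mir31 with XLOC_026180, and whether it measures the lnc-31 transcript is not stated. It stood at 12.1 and 14.1 FPKM in the libraries labelled lnc-31 siRNA, against 13.4 and 15.6 FPKM with scrambled siRNA, and the groups overlapped (log2 fold change -0.14, limma adjusted p = 0.38). This row was lower on average, but not beyond the spread of the libraries, and it may not measure the targeted RNA. For both reasons it cannot decide whether the knockdown worked. Libraries are therefore named by their labels throughout. The median of tested rows ranged from 13.9 to 14.4 FPKM over the 4 libraries. Rows over 10000 FPKM took 73.6% and 73.5% of the summed FPKM in the libraries labelled lnc-31 siRNA, against 61.9% in scrambled siRNA 1 and 76.0% in scrambled siRNA 2. Scrambled siRNA 1 stood apart from the other libraries in this share, and a fit without it is among those below that leave out a library. The myoblast markers Myod1, Myf5, Des and Cdh15 were present, with Des, the muscle intermediate filament desmin, at 202 and 209 FPKM in the libraries labelled lnc-31 siRNA, against 175 and 172 FPKM with scrambled siRNA. Pax7, from the same list of myoblast markers, matched no row of the table used here. None of 4 endothelial, 4 adipocyte or 4 hepatocyte markers matched a row of the table used here, and of 4 blood cell markers Cd68 alone did, at 1.27 and 1.14 FPKM in the libraries labelled lnc-31 siRNA, against 1.49 and 1.65 FPKM with scrambled siRNA. In such bulk RNA, more cells of a kind and more RNA per cell cannot be told apart.

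All 6 hormone RNAs were higher in both libraries labelled lnc-31 siRNA than in either scrambled siRNA library. The same held for 28.6% of all rows of the table and 28.5% of the tested ones. Tested rows, those whose mean was at least 1 FPKM, entered a limma fit of log2(FPKM + 1), and a gene is said to be called where its p-value, adjusted over all 11500 rows by the Benjamini-Hochberg method, lay under 0.05. Of the 5 hormones that passed this filter, 4 were called higher and none lower, where 5.64% of all tested rows were called higher and 6.78% lower. The genes were put forward when results of this comparison were known, Fgf21 and Adm2 being among its highest fold changes, so their differences are given as a description with no test. With 2 libraries a group, an exact permutation of the libraries could not give a two-sided p below 0.333 for any gene.

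FGF21 is a metabolic hormone that signals through FGF receptors and the coreceptor beta-klotho. Its RNA was at 5.12 and 3.89 FPKM in the libraries labelled lnc-31 siRNA, against 1.39 and 1.73 FPKM with scrambled siRNA. The group means were 4.50 ± 0.873 and 1.56 ± 0.237 FPKM (SD, n = 2 each), a ratio of 2.89, and the log2 fold change was 1.10 (SE 0.13), the 22nd highest of the tested rows. The lower library labelled lnc-31 siRNA was 2.25 times the higher scrambled siRNA library, so the gap between groups exceeded the spread within them. Its call was lost in the fit without scrambled siRNA 1, where the log2 fold change was 1.003 (SE 0.16).

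Adm2 encodes adrenomedullin 2, also called intermedin, a vasoactive peptide of the calcitonin family. It stood at 3.88 and 4.69 FPKM in the libraries labelled lnc-31 siRNA, against 1.78 and 1.004 FPKM with scrambled siRNA. The means were 4.29 ± 0.573 and 1.39 ± 0.549 FPKM (SD, n = 2 each), a ratio of 3.08, with a log2 fold change of 1.16 (SE 0.17), the 19th highest. The scrambled siRNA libraries differed from each other 1.77-fold, and the lower library labelled lnc-31 siRNA was 2.18 times the higher of them. Its call was lost in the fit without lnc-31 siRNA 2 (log2 fold change 1.05, SE 0.21).

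Adm, which encodes adrenomedullin, a vasodilator peptide and the relative of Adm2, had the lowest level of the 6. It was listed at 0.595 and 0.686 FPKM in the libraries labelled lnc-31 siRNA, against 0.342 and 0.119 FPKM with scrambled siRNA, and fell under the filter. The scrambled siRNA libraries differed 2.87-fold. A fit with no filter gave a log2 fold change of 0.42 (SE 0.12) and did not call it. The RefSeq span of Adm overlaps that of Gm28863, so part of so low a value may belong to that gene.

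GDF15 is a distant member of the TGF-beta family that acts on the brainstem receptor GFRAL to lower appetite. Gdf15 was at 27.1 and 31.7 FPKM in the libraries labelled lnc-31 siRNA, against 20.2 and 16.8 FPKM with scrambled siRNA. The means were 29.4 ± 3.28 and 18.5 ± 2.39 FPKM (SD, n = 2 each), a ratio of 1.59, and the log2 fold change was 0.64 (SE 0.11), the 127th highest. The gap between groups was 1.34-fold, larger than the 1.17-fold and 1.20-fold spreads within the libraries labelled lnc-31 siRNA and within the scrambled siRNA libraries. The call was lost without lnc-31 siRNA 2 (log2 fold change 0.53, SE 0.11) and without scrambled siRNA 2 (0.52, SE 0.11).

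Vegfa encodes the growth factor of blood vessels and was the most abundant of the 6. It was at 64.5 and 63.2 FPKM in the libraries labelled lnc-31 siRNA, against 49.7 and 55.9 FPKM with scrambled siRNA. The means were 63.8 ± 0.939 and 52.8 ± 4.38 FPKM (SD, n = 2 each), a ratio of 1.21, with a log2 fold change of 0.27 (SE 0.063). The gap between groups, 1.13-fold, was close to the 1.12-fold spread within the scrambled siRNA libraries. Vegfa was called in 6 of 12 alternative fits and in none that left out a library, where the log2 fold change ran from 0.19 to 0.36.

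Stc2 encodes stanniocalcin 2, a glycoprotein that inhibits the IGF-releasing protease PAPP-A. It was at 5.77 and 6.18 FPKM in the libraries labelled lnc-31 siRNA, against 5.06 and 5.39 FPKM with scrambled siRNA. The means were 5.98 ± 0.290 and 5.22 ± 0.230 FPKM (SD, n = 2 each), a ratio of 1.14. Its log2 fold change was 0.16 (SE 0.069), it was not called, and the gap between groups (1.07-fold) was about as wide as the spreads within the libraries labelled lnc-31 siRNA (1.07-fold) and within the scrambled siRNA libraries (1.06-fold).

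**Figure D1:**
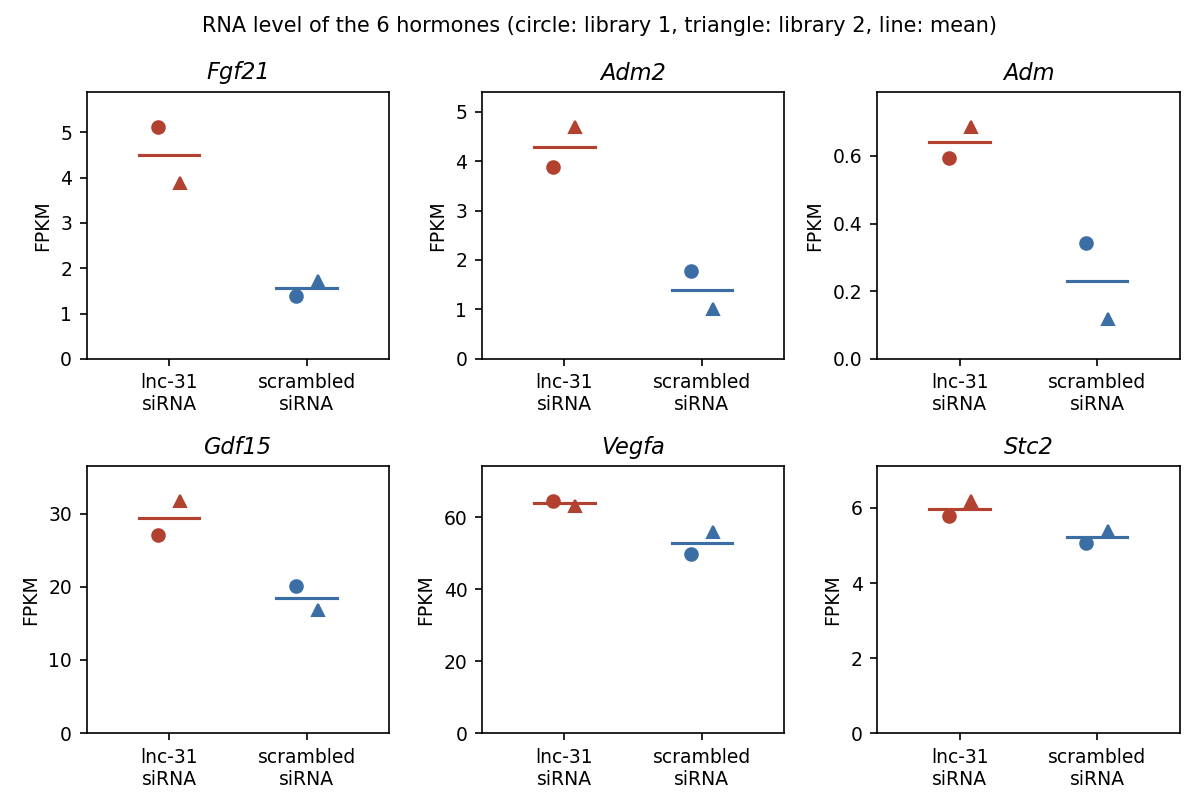
FPKM of each hormone in the 2 libraries labelled lnc-31 siRNA (red) and the 2 with scrambled siRNA (blue); circles are library 1, triangles library 2, and lines the group mean, with a separate FPKM scale from 0 in each panel. Both red points lie above both blue points in all 6 panels, with the widest gaps in Fgf21 and Adm2 and the narrowest in Stc2.

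The order of levels, in FPKM, was Vegfa, Gdf15 and Stc2, with Adm last, in all 4 libraries. Fgf21 and Adm2 came between Stc2 and Adm and were not separated beyond their spread. Fgf21 was above Adm2 in lnc-31 siRNA 1 and scrambled siRNA 2, and below it in the other library of each group. Vegfa was more abundant than 86.1% of tested rows and Gdf15 than 65.6%, whereas Stc2 (24.6%), Fgf21 (13.5%) and Adm2 (12.5%) were low. Stc2 was 1.13 and 1.59 times Fgf21 in the libraries labelled lnc-31 siRNA, against 3.63 and 3.12 times with scrambled siRNA. Vegfa was 2.38 and 1.99 times Gdf15 in the libraries labelled lnc-31 siRNA, against 2.46 and 3.33 times with scrambled siRNA.

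The libraries of a group did not order the hormones alike. Of the libraries labelled lnc-31 siRNA, the first was higher for Fgf21 and Vegfa and the second for Gdf15, Adm2, Adm and Stc2. Of the scrambled siRNA libraries, the first was higher for Gdf15, Adm2 and Adm and the second for Fgf21, Vegfa and Stc2. Fgf21 and Vegfa thus shared one order within the groups, and Gdf15, Adm2 and Adm shared the opposite one.

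The intracellular arm of the stress response was described from 2 lists whose earlier results were in part known. The first list, the stress factors, held the eIF2 kinases, the eIF2 subunit Eif2s1, the phosphatase subunits Ppp1r15a and Ppp1r15b, and transcription factors and regulators. It was wider than the integrated stress response, with Atf6, Ern1, Xbp1 and Nfe2l2 among its genes. Of these 19 tested genes, 9 rose, Atf6, Xbp1 and Ppp1r15a among them, none fell and 10 were not called. Their median log2 fold change was 0.28. Over all tested rows, 12.4% were called in either direction and the median was -0.01. Trib3, a pseudokinase that restrains ATF4, was at 24.7 and 23.2 FPKM in the libraries labelled lnc-31 siRNA, against 9.06 and 10.4 FPKM with scrambled siRNA (log2 fold change 1.22, SE 0.074, limma adjusted p = 0.0036). Nupr1, a chromatin protein induced by stress, had a log2 fold change of 1.01 (SE 0.047, limma adjusted p = 0.0022). Ddit3, which encodes CHOP, had one of 0.90 (SE 0.041, limma adjusted p = 0.0022).

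Ddit3, Nupr1 and Trib3 each kept the groups well apart. The ratio of group means, in FPKM, was 1.89 for Ddit3, 2.03 for Nupr1 and 2.46 for Trib3, beside the 2.89 of Fgf21 and 3.08 of Adm2. The 4 eIF2 kinases, Eif2ak1, Eif2ak2, Eif2ak3 and Eif2ak4, were not called, with log2 fold changes of 0.06, -0.19, -0.05 and 0.004. These are RNA levels, and the activity of the kinases was not measured. Atf4 itself rose, at 468 and 471 FPKM in the libraries labelled lnc-31 siRNA, against 349 and 367 FPKM with scrambled siRNA (log2 fold change 0.39, limma adjusted p = 0.010).

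Over all tested rows, 5.64% were called higher and 6.78% lower. Of 19 tested intracellular targets of ATF4, 14 rose, none fell and 5 were not called, with a median log2 fold change of 0.44. Those with the smallest p were the cystine transporter Slc7a11 (log2 fold change 0.73, limma adjusted p = 0.0055), the leucine sensor Sesn2 (0.57, adjusted p = 0.0057) and Ddit4, an inhibitor of mTORC1 that is also a HIF target (0.88, adjusted p = 0.0057). Slc3a2, the heavy chain shared by amino acid transporters, followed closely (0.45, adjusted p = 0.0057). Slc7a11 was at 19.8 and 20.5 FPKM in the libraries labelled lnc-31 siRNA, against 12.2 and 11.4 FPKM with scrambled siRNA. The serine synthesis enzymes Phgdh (0.08) and Psat1 (0.01) were not called. With 1 library left out at a time, 6 to 9 of the factors and 8 to 10 of the targets rose. The lowest count of targets, 8, came without scrambled siRNA 1.

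Because Adm and Vegfa are HIF targets too, genes of the HIF pathway were set beside them. Of 21 tested, 5 rose and 1 fell, where 5.64% of all tested rows were called higher and 6.78% lower. Another 15 were not called, and the median log2 fold change of the 21 was 0.03. Ndrg1, a stress and hypoxia gene, was at 22.7 and 24.6 FPKM in the libraries labelled lnc-31 siRNA, against 14.6 and 14.3 FPKM with scrambled siRNA (log2 fold change 0.67, limma adjusted p = 0.0056). Ddit4 was at 126 and 147 FPKM in the libraries labelled lnc-31 siRNA, against 72.0 and 74.8 FPKM with scrambled siRNA (0.88, limma adjusted p = 0.0057). Ero1l, the oxidase that forms disulfide bonds in the endoplasmic reticulum, fell to 12.2 and 12.3 FPKM in the libraries labelled lnc-31 siRNA, against 17.5 and 18.3 FPKM with scrambled siRNA (-0.51, limma adjusted p = 0.0077).

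The other genes of the list that rose were the mitophagy receptor Bnip3 (log2 fold change 0.27), the collagen hydroxylase P4ha2 (0.21) and the glucose transporter Slc2a1 (0.18). The glycolytic HIF targets Ldha and Pgk1 (log2 fold changes -0.01 and -0.04), the subunit Hif1a (-0.04) and the hypoxia sensor Egln3 (-0.12) were not called. With 1 library left out, whichever it was, 2 genes of the HIF list rose and 1 fell.

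**Figure D2:**
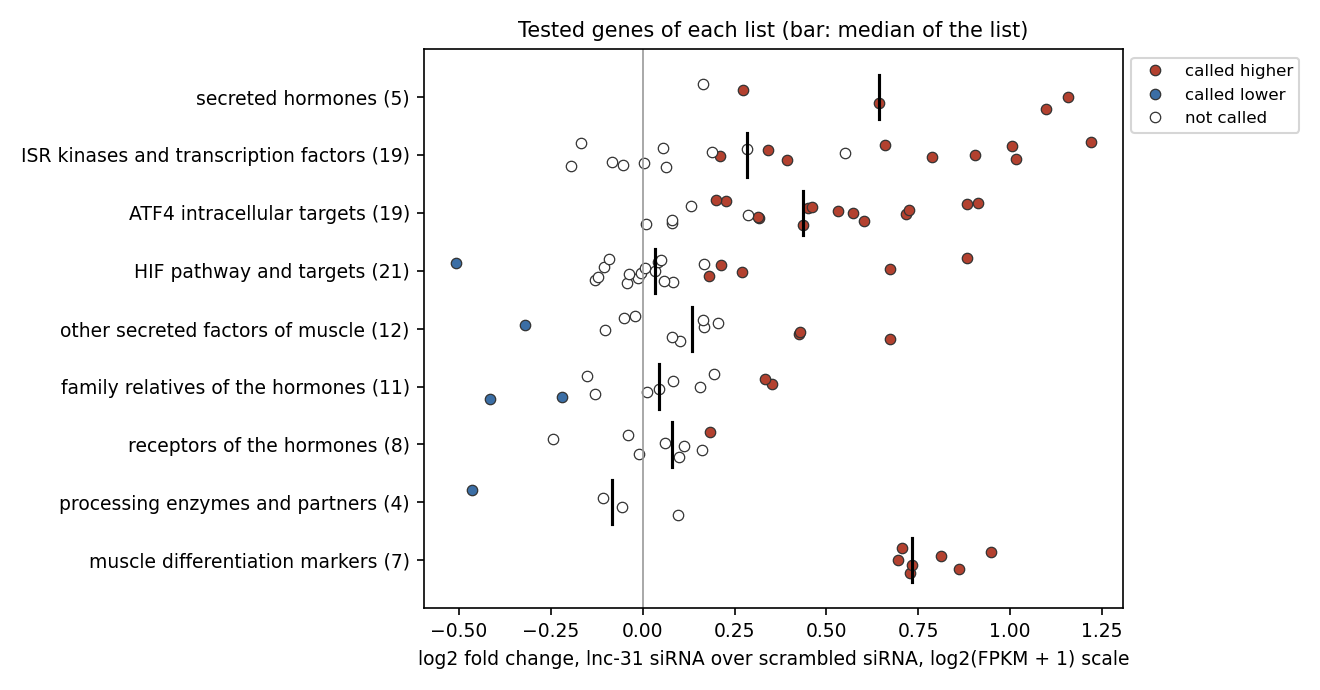
Log2 fold change, libraries labelled lnc-31 siRNA over scrambled siRNA, of each tested gene (points) by list, with the number tested in brackets; fill gives the call at an adjusted p under 0.05 and bars the list's median. The muscle differentiation markers have the highest median (0.73), followed by the hormones (0.64), the ATF4 targets (0.44) and the stress factors (0.28). Further left lie the other secreted factors (0.13), the receptors (0.08), the relatives (0.05), the HIF list (0.03) and the processing enzymes (-0.08).

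Relatives of the hormones were tested for the FGF, TGF-beta and VEGF families, and none for Adm, Adm2 or Stc2. Of these 11 pooled, 2 rose and 2 fell, where 5.64% of all tested rows were called higher and 6.78% lower. Another 7 were not called, and the median log2 fold change of the 11 was 0.05. Inhba, the activin A subunit, rose (0.35, SE 0.058, limma adjusted p = 0.022), as did Vegfc, the lymphatic vessel factor (0.33, SE 0.057, limma adjusted p = 0.024). Fgf2, a mitogen of myoblasts, fell to 4.98 and 5.35 FPKM in the libraries labelled lnc-31 siRNA, against 6.97 and 7.47 FPKM with scrambled siRNA (-0.42, SE 0.070, limma adjusted p = 0.022), and Fgf7 fell too (-0.22, limma adjusted p = 0.045).

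Fgf2 and Fgf7 thus lay on the other side of 0 from Fgf21. None of these 4 calls was made in a fit that left out any 1 library. Vegfa made up 45.9% and 44.8% of the summed FPKM of the 5 VEGF family genes (Vegfa, Vegfb, Vegfc, the Vegfd row Figf, and Pgf) in the libraries labelled lnc-31 siRNA, against 41.5% and 45.2% with scrambled siRNA. These shares overlapped.

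Of 8 tested receptor genes 1 was called, a share near the 12.4% of all tested rows. It was Nrp2, a coreceptor of VEGF (log2 fold change 0.18, SE 0.040, limma adjusted p = 0.044), which was not called in any fit that left out a library. Calcrl and its partner Ramp2, which together form an adrenomedullin receptor, were not called (log2 fold changes 0.11 and 0.06). Ramp2 stood at 68.7 and 73.8 FPKM in the libraries labelled lnc-31 siRNA, against 68.3 and 68.2 FPKM with scrambled siRNA. Fgfr1, the receptor that binds FGF21 with beta-klotho, was at 79.4 and 78.5 FPKM in the libraries labelled lnc-31 siRNA, against 72.5 and 74.9 FPKM with scrambled siRNA (0.10, limma adjusted p = 0.16). Flt1, a VEGF receptor, was not called (-0.24, limma adjusted p = 0.11). Klb, which encodes beta-klotho, the GDF15 receptor Gfral and the main VEGF receptor Kdr matched no row of the table used here.

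Among 4 tested processing enzymes and partners, 1 fell, where 6.78% of all tested rows were called lower. Igfbp4, the IGF-binding protein that PAPP-A cleaves, was at 22.0 and 21.7 FPKM in the libraries labelled lnc-31 siRNA, against 29.1 and 32.1 FPKM with scrambled siRNA (log2 fold change -0.47, SE 0.059, limma adjusted p = 0.012), and its call was lost without scrambled siRNA 2. The prohormone convertase Furin (0.10), carboxypeptidase E (Cpe, -0.11) and Pcsk7 (-0.06) were not called. Pam, the enzyme that amidates adrenomedullin peptides, lay under the filter at 0.244 and 0.418 FPKM in the libraries labelled lnc-31 siRNA, against 0.755 and 0.684 FPKM with scrambled siRNA.

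Other secreted factors of muscle gave 3 higher, 1 lower and 8 not called of 12 tested (median log2 fold change 0.13). Over all tested rows, 5.64% were called higher and 6.78% lower. Angptl4, an inhibitor of lipoprotein lipase, rose (0.42, SE 0.049, limma adjusted p = 0.010), as did the growth factor Igf2 (0.43, SE 0.056, limma adjusted p = 0.013) and Fndc5, the precursor of irisin (0.67, SE 0.14, limma adjusted p = 0.038). Apln, which encodes the vasoactive peptide apelin, fell (-0.32, SE 0.074, limma adjusted p = 0.047). Apln was not called in any fit that left out a library. Without scrambled siRNA 1 none of the 12 was called, and without lnc-31 siRNA 2 only 1 rose. Muscle differentiation markers were higher in the same libraries, 7 of 7 called (median 0.73). Their summed level was 389 and 402 FPKM in the libraries labelled lnc-31 siRNA, against 216 and 244 FPKM with scrambled siRNA. Actc1, cardiac actin, had a log2 fold change of 0.73 (limma adjusted p = 0.0030), the embryonic myosin Myh3 0.86 (adjusted p = 0.0053) and the light chain Mylpf 0.81 (adjusted p = 0.0056). Of 7 tested myoblast markers 4 rose and 1 fell (median 0.24), with Myod1 at 0.36, Ncam1 at 0.30, Cdh15 at 0.25 and Des at 0.24 on the log2 scale, and Vcam1 at -0.26. The part of differentiation in the hormone differences was not tested.

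For each tested hormone the 3 genes with the nearest profile were found by the Euclidean distance of log2(FPKM + 1), centred on each gene, over the 4 libraries. The distance uses the comparison itself and is a description. Nearest to Fgf21 were Mb, which encodes myoglobin (distance 0.20), Trib3 (0.21) and the deacetylase Hdac11 (0.27). Nearest to Adm2 were Sardhos (0.25), Prl2c3 (0.28) and the stress factor Atf3 (0.30), and nearest to Gdf15 were Chchd10 (0.080), Ptprv (0.084) and Neb (0.098), which encodes nebulin. Prl2c3 belongs to a family of near-identical genes and Sardhos is named as an antisense transcript, so their counts are uncertain.

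Nearest to Vegfa were Syne1 (0.0064), Mbd6 (0.014) and Kif21b (0.016), of which none was called. Nearest to Stc2 were Mat2b (0.0078), Adrm1 (0.010) and Atp6v1h (0.014), and none of these was called either. Small distances are more common among genes that vary little, so distances are not comparable between hormones.

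**Figure D3:**
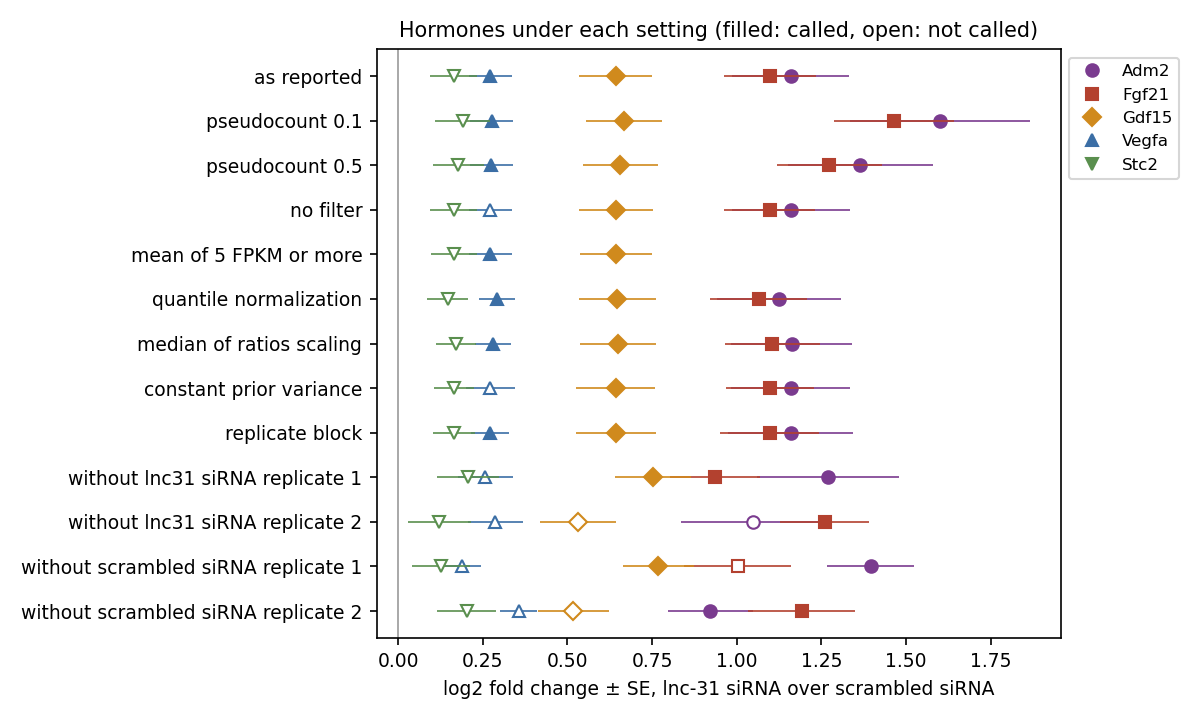
Log2 fold change with its SE, libraries labelled lnc-31 siRNA over scrambled siRNA, of the 5 tested hormones in the fit as reported and in each alternative; filled marks are called at an adjusted p under 0.05 and open marks are not. All marks lie right of 0, Adm2 and Fgf21 between 0.92 and 1.6, and Stc2 is open throughout; a filter at a mean of 5 FPKM leaves out Adm2 and Fgf21.

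The hormone genes lie on 5 chromosomes. On GRCm38.p6, which shares coordinates with the mm10 build of the files, RefSeq places Fgf21 at chromosome 7, 45613890 to 45615490, and Adm on the same chromosome at 110627657 to 110629820. Gdf15 is at chromosome 8, 70629393 to 70632470, Stc2 at chromosome 11, 31359441 to 31370061, Adm2 at chromosome 15, 89322720 to 89324731, and Vegfa at chromosome 17, 46016993 to 46032377. Sbf1, the nearest coding gene to Adm2 at 7409 bases, was at 54.9 and 56.9 FPKM in the libraries labelled lnc-31 siRNA, against 54.4 and 56.4 FPKM with scrambled siRNA.

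The pull-down, whose values played no part in the choice of genes, looked for RNAs recovered by lnc-31 probes. None of the 6 hormone genes held a peak over its gene body, from the start to the end of its RefSeq span, in the 596 peaks of the lnc-31 probes or the 476 of the lacZ probes. A peak with the lnc-31 probes lay over 1.78% of the 12323 table genes with a RefSeq position, and one with the lacZ probes over 1.68%, so none in 6 genes is near the background. The nearest peak of the lnc-31 probes was 898 kb from Vegfa, the closest of the 6. Among the relatives, Fgf7 held a peak with both probe sets and Vegfd with the lnc-31 probes. Fstl1, of the other secreted factors, held a peak with the lacZ probes only. None of the genes of the stress response lists held a peak with either probe set. With 1 library per probe set there is no replicate check, and the depth behind these lists is not given, so a peak too weak to be listed could not be seen.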

How the data were processed

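RNA was measured in 4 siRNA libraries made with a stranded mRNA kit and in pull-down libraries made with a whole-transcriptome kit (labels' protocols). FPKM values of the siRNA libraries were deposited by the authors, and the submitters' processing notes name CASAVA, Trimmomatic, Bowtie2, BWA, TopHat2, Cuffdiff and mm10, with no versions. For the pull-down the authors deposited 1 peak list per probe set, with a last column that was read as a p-value from its range alone and used only to keep the part of each list under its median in an alternative. No source used here names the peak caller, and the input library was not analysed here. The depth is unknown, because FPKM values are not counts and no step of whole reads was seen: of 1160 rows under a mean of 0.6 FPKM, at most 15 shared a ratio of the scrambled siRNA libraries within 0.5%.

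FPKM values were transformed to log2(FPKM + 1), which understates the change of low genes. Rows whose mean was at least 1 FPKM were fitted with limma 3.58.1 in R 4.3.3 (two-sided, Benjamini-Hochberg threshold 0.05). The variance prior had a trend and 3.62 degrees of freedom. The fit was also run on simulated data, with the same SD for every gene and changes of equal size outside the low rows. That run does not show how the fit performs on low rows or small changes. Tables and figures used matplotlib 3.10.9, numpy 2.4.6, pandas 2.3.3 and Python 3.11.15. The members and the 7 pathway and 6 marker lists were chosen with earlier results of these data known. In each list the up to 3 tested genes of smallest p were named, or all measured ones where 4 or fewer, with the 3 nearest profiles per hormone. Slc3a2, Atf4, the eIF2 kinases, Phgdh, Psat1, Ldha, Pgk1, Hif1a, Egln3, Bnip3, P4ha2, Slc2a1, Apln, Fgf7, Cdh15, Vcam1, Calcrl, Ramp2, Des, Sbf1 and the genes without a row were added after their values were seen. Eif2s1, Ppp1r15a, Ppp1r15b, Atf6, Ern1, Xbp1 and Nfe2l2 were named to show what the list of stress factors held. Vegfd and Fstl1 were named for their peaks. Peaks were assigned by 1 base or more of overlap with a RefSeq gene. Alternatives were no filter, a filter at a mean of 5 FPKM, pseudocounts of 0.5 and 0.1, a prior without trend, scaling by quantiles or by the median of ratios, replicate numbers as a block, and fits without each library; for peaks, genes extended by 5 kb and the part of each list under its median p-value.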

Additional observations from a re-analysis of the deposited data

How the results depend on the processing

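Each of the 5 tested hormones had a positive log2 fold change in every alternative that tested it. Fgf21 was called in 10 of 11 alternatives, Adm2 in 10 of 11, Gdf15 in 10 of 12, Vegfa in 6 of 12 and Stc2 in 0 of 12. Vegfa was not called with no filter or with a constant prior variance. With a mean of 5 FPKM or more, 2 hormones were called, since Fgf21 and Adm2 fall under that filter. With 1 library left out, 1 to 3 hormones were called; the lowest count, 1, came without lnc-31 siRNA 2. In those fits, the lone library of a group is assumed to vary like the others.

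Over all rows 1429 genes were called, 649 higher and 780 lower. With 1 library left out these counts ran from 260 to 491, from 132 to 266 and from 97 to 242. The labels do not say that equal replicate numbers mark a shared batch, and the deviations of same-numbered libraries had a Pearson correlation of -0.094 across rows. With the replicate number as a block 1613 genes were called, among them the same count of hormones, 4. No scaling moved the median log2 fold change of all rows by more than 0.1. Among the lists, scaling by quantiles and by the median of ratios both called 5 other secreted factors higher in place of 3 and 1 stress factor lower in place of 0, and the block also called 1 stress factor lower. A constant prior called 3 HIF genes higher in place of 5, 1 relative lower in place of 2 and no receptor, no filter called 1 relative lower, and no secreted factor was lower with no filter, with a mean of 5 FPKM or with the block. Depth sets a limit that is not known here, above all for Adm and the other rows near or under 1 FPKM. No hormone gained a peak with genes extended by 5 kb or with the part of each peak list under its median p-value (0 of 6).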

Other observations

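Some relatives and partners of the hormones lay under the filter of 1 FPKM and were in no fit but that with no filter. Their results in that fit are not given gene by gene. These genes were picked after their values were seen, so the values are a description. Fgf1, a relative of Fgf21 that is not secreted by the classical route, was at 1.53 and 1.30 FPKM in the libraries labelled lnc-31 siRNA, against 0.498 and 0.462 FPKM with scrambled siRNA. Calcb, the beta form of calcitonin gene-related peptide and a relative of Adm and Adm2, was at 0.840 and 0.702 FPKM in the libraries labelled lnc-31 siRNA, against 0.325 and 0.388 FPKM with scrambled siRNA. Vldlr, a lipoprotein receptor and ATF4 target, was at 0.918 and 1.07 FPKM in the libraries labelled lnc-31 siRNA, against 0.334 and 0.390 FPKM with scrambled siRNA. Car9, a carbonic anhydrase known as a HIF target, was at 0.444 and 0.423 FPKM in the libraries labelled lnc-31 siRNA, against 0.108 and 0.167 FPKM with scrambled siRNA. The groups did not overlap in any of these 4 genes, as in 28.6% of all rows with the libraries labelled lnc-31 siRNA above. Of the other genes of the lists under the filter, Pappa, Il6 and Igf1 also lay above with no overlap, while Pam and Fgfr3 lay below. Fgfr3, an FGF receptor, was at 0.299 and 0.235 FPKM in the libraries labelled lnc-31 siRNA, against 0.372 and 0.511 FPKM with scrambled siRNA, and the groups overlapped in Bmp4, Ramp1 and Car12.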
